A study of Mus musculus with 35 samples.

Results

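The mitochondrial ribosomal proteins described here are the products of the genes named Mrpl (large subunit) or Mrps (small subunit) followed by a number. All genes with such a symbol were taken, using only probe sets annotated to a single symbol and, where a gene had several, the brightest on average. This gave 76 genes, 47 of the large and 29 of the small subunit, out of 18194 genes on the array. They were covered by 156 probe sets, and 42 of the genes had more than 1. All 76 passed the filter on low signal that left 14135 genes for testing. Mrpl30 and Mrpl53, which complete the 78 protein-coding symbols of this kind in the reference, had no probe set of their own.

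The mitochondrial ribosome translates the few proteins encoded by mitochondrial DNA, which are core subunits of the respiratory chain and of the ATP synthase. Its RNAs come from the mitochondrial genome, while its proteins are encoded in the nucleus, made in the cytosol and imported. Some subunits descend from bacterial ribosomal proteins and others were added in the mitochondrial lineage, and assembly relies on dedicated modifying enzymes, GTPases and helicases.

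Expression was measured on 35 Affymetrix arrays of primary mouse embryonic fibroblasts (MEFs) of the C57BL6/J strain, taken from day 15.5 embryos and expanded for 2 passages. At 0 h the medium was replaced by fresh medium alone (control) or with 40 µg/mL methyl methanesulfonate (MMS), an alkylating agent that adds methyl groups to DNA bases and other molecules. Control cells were collected at 0, 1, 8, 24 and 72 h. Exposed cells were collected at the last 4 of these times. Each group had 4 arrays, except MMS at 72 h with 3. No engineered allele is named in the labels, and the groups differed in agent and time. The arrays are called biological replicates but separate cultures are not stated, so p-values reflect only how these samples varied, which may be technical, and how many embryos were pooled is not given. The study's methods give another embryonic day and passage number than the labels. Values are log2 signals normalized by the authors, and a gene was called higher or lower at an adjusted p under 0.05 (limma, Benjamini-Hochberg over all genes tested). The MMS effect is the log2 signal of MMS-treated minus that of time-matched control cells.

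Several arrays stood apart from the others. The mean log2 signal of the 28 intestinal epithelium markers on the array was 10.10 in control 0 h replicate 3, 8.10 in MMS 24 h replicate 3, 6.66 in MMS 1 h replicate 3 and 5.60 in MMS 72 h replicate 3, against 4.66 in the median array. Counts are given below also without the first 3 of these arrays. The mean of the 17 macrophage markers was 8.07 to 8.21 in control and 7.55 to 7.80 in MMS arrays at 8 h, and between 4.40 and 5.91 in all other arrays. All 14 fibroblast markers were above the low-signal limit of log2 4.40 in every group. In bulk RNA, fewer cells of a type and less RNA per cell cannot be told apart.

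Nuclear genes for mitochondrial proteins are often described as targets of NRF1, of ETS-family factors such as GABP, and of YY1. The 300 bases around each gene's RefSeq start (250 before and 50 after, build GRCm38.p6) were therefore searched on both strands for the NRF1 core GCATGCGC, the ETS site CCGGAAGT and the YY1 site AGATGGCG. A window was found for 67 of the 76 genes. The NRF1 core was in 8 of them (11.9%, against 5.30% of the tested genes with a window), the ETS site in 12 (17.9% against 7.91%) and the YY1 site in 8 (11.9% against 3.90%). At least 1 of the motifs was in 26 of the 67 (38.8%), against 15.9% of tested genes. These are matches of letters in a window and not binding sites. The upstream 250 bases are given for 5 members whose time courses are given further on, with the motif in capitals. The Mrpl9 window (chr3:94443086-94443335, plus strand) holds an NRF1 core 26 bases before the start, overlapped by a match on the other strand at 28 bases, so that 10 bases are capitalized. The Mrpl39 window (chr16:84735245-84735494, minus strand) holds the same overlapping pair at 123 and 125 bases, and the Mrps18b window (chr17:35916441-35916690, minus strand) a single core at 223 bases. The windows of Mrpl51 (chr6:125191950-125192199, plus strand) and Mrps27 (chr13:99344536-99344785, plus strand) hold an ETS site, at 90 bases on the same strand and at 49 bases on the other strand.
Mrpl9: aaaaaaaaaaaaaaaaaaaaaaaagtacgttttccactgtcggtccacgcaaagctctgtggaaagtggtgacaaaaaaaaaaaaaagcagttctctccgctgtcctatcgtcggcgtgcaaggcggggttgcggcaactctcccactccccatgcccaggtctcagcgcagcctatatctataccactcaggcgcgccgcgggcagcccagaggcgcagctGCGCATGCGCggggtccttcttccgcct
Mrpl39: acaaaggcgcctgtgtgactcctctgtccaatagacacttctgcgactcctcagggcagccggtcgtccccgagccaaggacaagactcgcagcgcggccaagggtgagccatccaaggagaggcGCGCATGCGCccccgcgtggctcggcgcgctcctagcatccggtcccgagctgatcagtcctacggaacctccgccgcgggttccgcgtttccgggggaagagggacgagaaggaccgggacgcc
Mrps18b: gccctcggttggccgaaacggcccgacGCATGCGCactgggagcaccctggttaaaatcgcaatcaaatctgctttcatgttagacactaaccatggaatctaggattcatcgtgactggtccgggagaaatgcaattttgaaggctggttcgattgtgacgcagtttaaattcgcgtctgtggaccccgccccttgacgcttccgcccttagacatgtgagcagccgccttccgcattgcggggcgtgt
Mrpl51: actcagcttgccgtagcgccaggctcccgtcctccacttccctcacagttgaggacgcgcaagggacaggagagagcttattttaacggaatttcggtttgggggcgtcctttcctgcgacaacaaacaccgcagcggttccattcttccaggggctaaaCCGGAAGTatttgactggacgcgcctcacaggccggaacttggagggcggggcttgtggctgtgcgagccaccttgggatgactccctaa
Mrps27: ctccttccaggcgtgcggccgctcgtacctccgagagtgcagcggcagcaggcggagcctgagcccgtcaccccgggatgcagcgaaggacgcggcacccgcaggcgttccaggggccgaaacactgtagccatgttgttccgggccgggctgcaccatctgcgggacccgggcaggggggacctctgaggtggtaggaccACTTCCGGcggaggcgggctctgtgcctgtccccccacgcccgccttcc

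The mean signals of both subunits followed a common time course. The mean log2 signal of the large subunit genes was 9.29, 9.19, 9.23 and 9.48 in the 4 control arrays at 0 h and 9.93, 9.86, 9.96 and 9.91 in those at 8 h. In the MMS arrays it was 10.08, 9.99, 10.05 and 10.03 at 8 h, and 9.71, 9.75, 9.41 and 9.71 at 24 h, when the control arrays stood at 9.21, 9.38, 9.25 and 9.35. All 8 h arrays were above all others in this mean, and each MMS array at 8 and 24 h was above each control array of its time. At 24 h the lowest MMS value belonged to replicate 3, the array with intestinal transcripts, and at 72 h the MMS arrays (9.13, 9.12 and 9.14) lay at the upper end of the controls (8.94, 9.08, 9.13 and 9.06). The small subunit genes followed the same course, with means of 9.73 to 9.81 in control and 9.89 to 10.00 in MMS arrays at 8 h, and of 9.09 to 9.21 in control and 9.18 to 9.53 in MMS arrays at 24 h, where the groups overlapped through replicate 3.

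**Figure D1:**
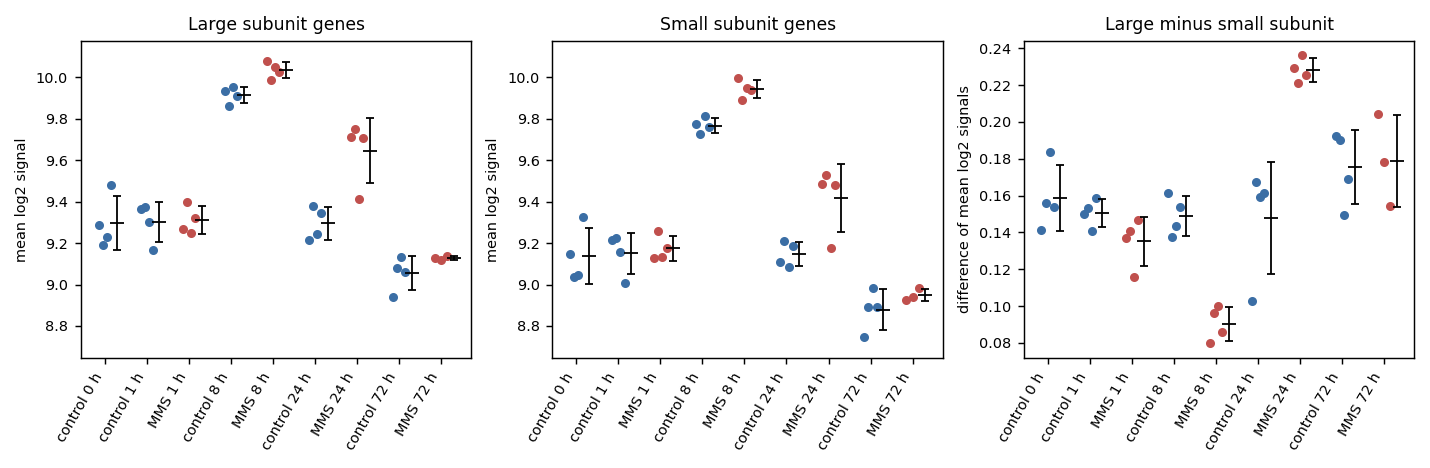
Mean log2 signal of the 47 large and the 29 small subunit genes, and the difference of these means, for each array (points, blue for control and red for MMS), with the group mean and SD (black, n = 4, or 3 for MMS 72 h). Both means peaked in the 8 h arrays, and the difference of the means was lowest in the MMS arrays at 8 h (0.08 to 0.10) and highest in those at 24 h (0.22 to 0.24).

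At 8 h, MMS exposure upregulated 30 and downregulated 9 of the 76 genes, a mixed response. Of all genes tested, 28.7% were higher and 25.0% lower at this time, so the share of members higher (39.5%) was above and the share lower (11.8%) below that of all genes. The median MMS effect of the members was 0.07 (log2), against 0.06 for all genes. Of the large subunit 19 genes rose and 6 fell, and of the small subunit 11 rose and 3 fell. The 4 largest rises were those of Mrps31 and Mrpl46, proteins special to the mitochondrial ribosome of the small subunit head and of the central protuberance of the large subunit, and of Mrps2 and Mrpl9, which have bacterial counterparts.

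The Mrps31 signal was 8.51, 8.48, 8.42 and 8.54 in the control arrays at 8 h and 9.57, 9.64, 9.57 and 9.58 in the MMS arrays. The groups lay more than 1 log2 unit apart, a rise of 2.15-fold (log2 1.10 ± 0.08 SE, adjusted p = 5.3e-13, limma), and Mrps31 was the only member to change 2-fold at this time. Mrps2 was at 8.99, 9.24, 9.16 and 9.18 in control and at 10.07, 9.98, 10.05 and 9.98 in MMS arrays, 1.84-fold higher (log2 0.88 ± 0.06 SE, adjusted p = 5.9e-13). Mrpl9 was at 9.35, 9.37, 9.42 and 9.42 in control and at 10.15, 10.22, 10.27 and 10.25 in MMS arrays, 1.78-fold higher (log2 0.83 ± 0.05 SE, adjusted p = 4.5e-14). Mrpl46 was at 9.06, 9.14, 9.07 and 9.15 in control and at 9.94, 9.88, 9.90 and 9.99 in MMS arrays, 1.77-fold higher (log2 0.82 ± 0.07 SE, adjusted p = 2.3e-11). In all 4 genes every MMS array was above every control array, with little spread inside each group. The separation was fixed by the choice of genes and is no added evidence. Here and in the comparisons below, the largest changes were named only among called members whose groups did not overlap.

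The falls at 8 h were smaller. Mrpl42, a mitochondria-specific protein of the large subunit, was at 10.60, 10.27, 10.56 and 10.52 in control and at 10.00, 9.91, 9.97 and 9.95 in MMS arrays, 1.45-fold lower (log2 -0.53 ± 0.11 SE, adjusted p = 0.00013). Mrps28, a small subunit protein, was at 9.77, 9.58, 9.82 and 9.76 in control and at 9.47, 9.21, 9.49 and 9.20 in MMS arrays, 1.31-fold lower (adjusted p = 0.0087). Mrpl20 and Mrps15, which have bacterial counterparts, were 1.22-fold (adjusted p = 0.023) and 1.21-fold lower (adjusted p = 0.0076). In all 4 genes no MMS array reached the lowest control array, which the choice of genes required. Against the control cells at 0 h, however, the MMS-treated cells at 8 h had higher signals of Mrps28, Mrpl20 and Mrps15 (log2 differences 0.44, 0.43 and 0.63), and with 8 h MMS set against 0 h controls 71 members were higher and 0 lower (limma). Without control 8 h replicate 1 the count of lower members was 4 in place of 9. The Mrps15 call was lost with the mean of all probe sets (-0.13, adjusted p = 0.22). The Mrpl20 call was lost without MMS 8 h replicate 4 (-0.26, adjusted p = 0.057), without control 8 h replicate 1 (-0.27, adjusted p = 0.053) or without control 8 h replicate 4 (-0.26, adjusted p = 0.063), and when arrays were centred on their median (-0.24, adjusted p = 0.095).

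Cell type markers also moved at 8 h. Of the 16 macrophage markers tested, 9 were lower and 1 higher in MMS-treated than in control cells at 8 h, with a median of -0.54, and of the 14 fibroblast markers 11 were lower and 0 higher, with a median of -0.57. Their part in the values of the ribosomal protein genes was not tested.

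At 24 h, MMS exposure upregulated 51 of the 76 genes and downregulated 1. All genes tested were higher in 25.0% and lower in 19.4%, and the members in 67.1% and 1.32%. The median MMS effect of the members was 0.32 (log2), against 0.01 for all genes. Of the large subunit 33 genes rose and 0 fell (2 at an unadjusted p under 0.05 in limma), and of the small subunit 18 rose and 1 fell. Without the 3 arrays with the most intestinal transcripts 56 members were higher and 1 lower. The fibroblast markers were again mostly lower in MMS-treated cells at this time (13 of 14, median -0.92), and of the 16 macrophage markers 3 were higher and 0 lower, with a median of -0.03. Their part in these values was not tested.

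Mrpl39, a mitochondria-specific protein near the exit of the peptide tunnel, changed most. Its signal was 10.37, 10.59, 10.60 and 10.68 in the control arrays at 24 h and 11.59, 11.56, 11.71 and 11.74 in the MMS arrays. The groups were far apart, and the rise was 2.13-fold (log2 1.09 ± 0.08 SE, adjusted p = 3.1e-12, limma), the only 2-fold change of a member at this time. Mrpl16, a large subunit protein with a bacterial counterpart, was at 9.25, 9.54, 9.38 and 9.38 in control and at 10.35, 10.25, 10.20 and 10.31 in MMS arrays, 1.85-fold higher (log2 0.89 ± 0.06 SE, adjusted p = 9.4e-13). Mrpl51, special to mitochondria, was at 10.57, 10.77, 10.68 and 10.82 in control and at 11.61, 11.57, 11.46 and 11.70 in MMS arrays, 1.83-fold higher (log2 0.87 ± 0.07 SE, adjusted p = 9.6e-12). Mrpl41, a mitochondria-specific protein also described as a partner of Bcl-2, was at 9.13, 9.46, 9.39 and 9.59 in control and at 10.44, 10.31, 9.75 and 10.23 in MMS arrays, 1.73-fold higher (log2 0.79 ± 0.11 SE, adjusted p = 6.8e-07). In Mrpl41 replicate 3 was the lowest MMS array. No MMS array of these 4 genes came down to a control array, which the choice of genes required.

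Mrps28 was the single member to fall at 24 h. It was at 8.75, 9.001, 8.79 and 8.96 in control and at 8.45, 8.44, 7.80 and 8.51 in MMS arrays, 1.49-fold lower (log2 -0.58 ± 0.12 SE, adjusted p = 0.00031). Replicate 3 was far below the other MMS arrays, and all 4 were below the controls. Mrps28 was thus lower in MMS-treated cells at both 8 and 24 h.

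**Figure D2:**
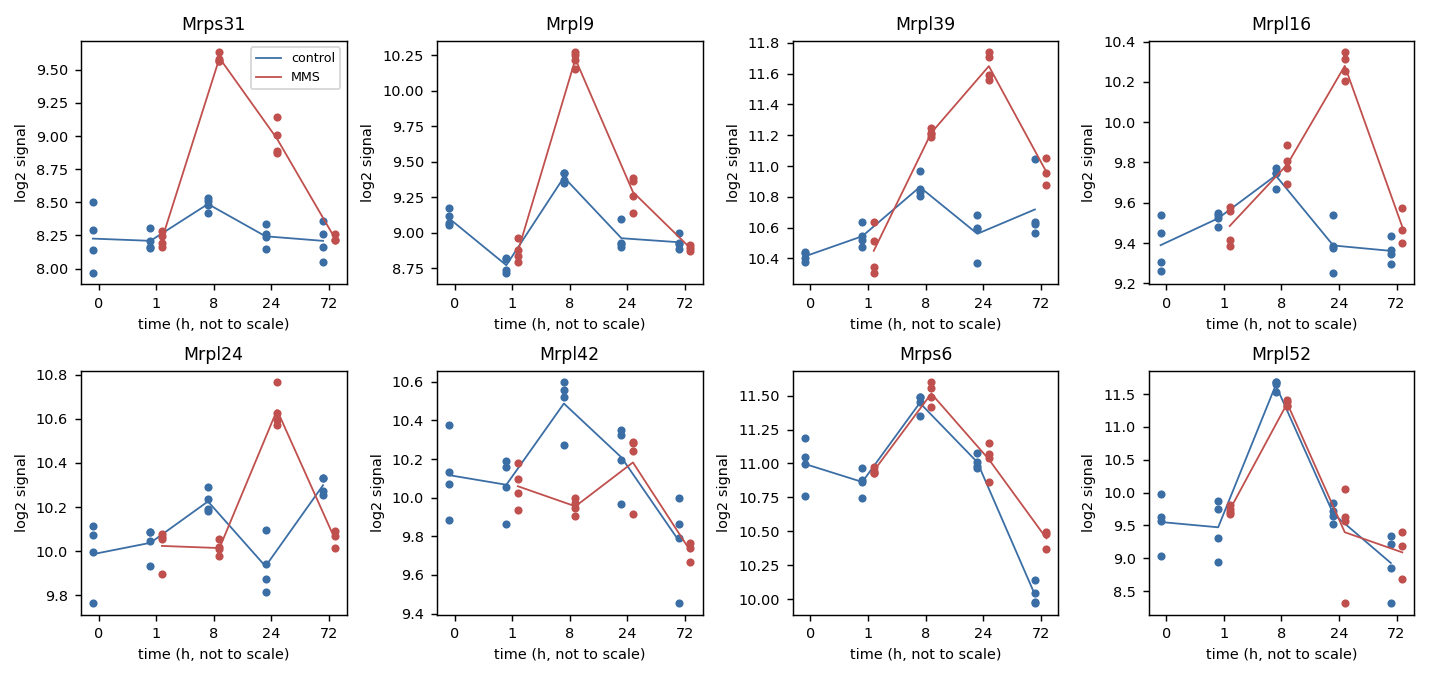
Log2 signal of 8 members in every array (points) and the group means (lines) in control (blue) and MMS-treated cells (red) over time. Mrps31 and Mrpl9 were highest in the MMS arrays at 8 h, Mrpl39, Mrpl16 and Mrpl24 in those at 24 h, Mrpl42 was lower with MMS at 8 h (9.91 to 10.00 against 10.27 to 10.60), the Mrps6 signal of the controls was lowest at 72 h (9.97 to 10.14), and Mrpl52 was highest in the controls at 8 h (11.54 to 11.68).

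Comparing the times, 26 members were higher at both 8 and 24 h, which is 86.7% of the 30 higher at 8 h and 51.0% of the 51 higher at 24 h. Of all members, 39.5% were higher at 8 h and 67.1% at 24 h. This overlap was not counted over all genes, so it cannot be called particular to the members. A further 21 members rose at 24 h without passing the test at 8 h, and 4 (Mrpl17, Mrpl18, Mrpl24 and Mrps34) fell at 8 h and rose at 24 h. Among these, Mrpl18 passed narrowly at 8 h (adjusted p = 0.0497), and the Mrpl17 fall (-0.17, adjusted p = 0.033) did not pass without MMS 8 h replicate 2 (-0.14, adjusted p = 0.11), replicate 3 (adjusted p = 0.060) or replicate 4 (adjusted p = 0.053), or without control 8 h replicate 1 (adjusted p = 0.065) or replicate 3 (adjusted p = 0.079). With arrays centred on their median, neither the Mrpl17 fall at 8 h (-0.13, adjusted p = 0.16) nor its rise at 24 h (0.17, adjusted p = 0.072) passed. The difference between MMS effects was itself tested. From 1 to 8 h the MMS effect changed in 29 of the 76 members (27 or 35.5% upward, 2 or 2.63% downward). It changed in 41.3% of all genes in either direction. From 8 to 24 h it changed in 34 members (27 or 35.5% upward, 7 or 9.21% downward), against 45.6% of all genes. From 24 to 72 h it changed in 40 members (3 upward, 37 downward), against 29.0% of all genes. Counting both directions, only this last count was above the share of all genes. With arrays quantile-normalized again, 3564 of 13971 genes changed upward and 2568 downward from 1 to 8 h. From 8 to 24 h 2968 changed upward and 3825 downward. In that setting 27 upward and 2 downward changes of the 76 members still passed from 1 to 8 h. From 8 to 24 h these were 25 and 7. The upward share of the members was thus above that of all genes in both intervals, and the downward share still passing was below. The contrasts share arrays. Centring each array on the median of the genes tested moved the median of all genes by -0.12 (24 minus 8 h) and 0.11 (72 minus 24 h). With this centring, 16 of the 27 upward changes from 8 to 24 h and 24 of the 37 downward changes from 24 to 72 h still passed the test.

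Mrpl24, an exit tunnel protein, moved most between times. Its control arrays were at 10.24, 10.19, 10.29 and 10.18 at 8 h and its MMS arrays at 10.05, 10.01, 9.98 and 10.02, a fall of 0.21 on the log2 scale (1.16-fold lower, adjusted p = 0.0068). At 24 h the control arrays were at 9.81, 10.10, 9.88 and 9.94 and the MMS arrays at 10.77, 10.59, 10.57 and 10.63, 1.63-fold higher (log2 0.71 ± 0.06 SE, adjusted p = 2.0e-10). At 72 h the order turned again, with 10.27, 10.33, 10.33 and 10.26 in control and 10.07, 10.09 and 10.02 in MMS arrays, 1.18-fold lower (adjusted p = 0.013). The groups did not overlap at any of the 3 times. The MMS effect on Mrpl24 changed by 0.92 from 8 to 24 h (adjusted p = 1.8e-09) and by -0.95 from 24 to 72 h (adjusted p = 4.9e-09). Mrpl16 was also late, with an MMS effect of 0.05 at 8 h that did not pass the test and a change of 0.84 from 8 to 24 h (adjusted p = 8.0e-09). The MMS effect on Mrps31, Mrps2 and Mrpl9, in contrast, fell by 0.37, 0.44 and 0.51 over this interval (adjusted p = 0.0081, 0.00016 and 2.1e-06), and that on Mrpl50, a mitochondria-specific protein, fell by 0.49 (adjusted p = 0.012).

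At 72 h, 5 members were higher and 1 lower after MMS (6.58% and 1.32%), below the 10.1% and 10.4% of all genes, and the median MMS effect was 0.07 against -0.01 for all genes. Mrps6, which has a bacterial counterpart, was at 9.97, 10.04, 10.14 and 9.98 in control and at 10.49, 10.37 and 10.48 in MMS arrays, 1.33-fold higher (log2 0.41 ± 0.08 SE, adjusted p = 1.0e-04). Mrpl38, of the central protuberance, was at 7.92, 7.95, 7.95 and 7.89 in control and at 8.50, 8.12 and 8.23 in MMS arrays, 1.28-fold higher (adjusted p = 0.0020). Mrps18b was at 9.42, 9.41, 9.46 and 9.46 in control and at 9.69, 9.75 and 9.80 in MMS arrays, 1.24-fold higher (adjusted p = 0.00072). In these 3 genes the MMS arrays were all above the controls, which the choice of genes required. With the mean of all probe sets the Mrpl38 call was lost (0.20, adjusted p = 0.067). The other called rises were those of Mrpl51 (1.17-fold, adjusted p = 0.028) and Mrpl17 (1.16-fold, adjusted p = 0.032), and the fall that of Mrpl24. Without MMS 72 h replicate 3, which carried intestinal transcripts, the calls of Mrpl51 (0.16, adjusted p = 0.22) and Mrpl24 (-0.22, adjusted p = 0.063) were lost, and Mrpl51 was also lost without control 72 h replicate 4 (0.20, adjusted p = 0.097). The call of Mrpl17 was lost without MMS 72 h replicate 1 (0.16, adjusted p = 0.20) or replicate 2 (0.23, adjusted p = 0.067), and without control 72 h replicate 1 (0.18, adjusted p = 0.11) or replicate 4 (0.21, adjusted p = 0.065). The count of higher members was 3 without control 72 h replicate 4 and 9 without the 3 arrays with the most intestinal transcripts.

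At 1 h no member passed the test in limma in either direction, while 0.361% of all genes were higher and 0.0283% lower. At an unadjusted p under 0.05, 0 members were higher and 2 lower, Mrpl15 and Mrpl44. Mrpl44 was at 8.23, 8.26, 8.39 and 8.12 in control and at 8.11, 8.02, 7.89 and 8.07 in MMS arrays at 1 h, a difference of -0.23 (adjusted p = 0.30). The MMS arrays lay just under the controls without overlap.

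The control cultures changed over time as well. At 8 h, 72 of the 76 genes were higher than in the control cells at 0 h and 0 were lower (0 also at an unadjusted p under 0.05 in limma), where 35.8% of all genes were higher and 23.6% lower. The median difference was 0.63 for the members and 0.09 for all genes, with 0.60 for the large and 0.69 for the small subunit. The 4 members that did not pass were Mrpl10, Mrpl14, Mrpl48 and Mrps33. Of the 16 macrophage markers tested all were higher at 8 h, with a median of 3.70, and of the 14 fibroblast markers 6 were higher and 5 lower. The 8 h arrays of both treatments had these macrophage signals, and their part in the rise of the ribosomal protein genes was not tested.

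Mrpl52, a mitochondria-specific protein of the central protuberance, was at 9.57, 9.63, 9.03 and 9.97 in the control arrays at 0 h and at 11.68, 11.65, 11.68 and 11.54 at 8 h, 4.24-fold higher (log2 2.08 ± 0.25 SE, adjusted p = 3.3e-08, limma). Mrpl54 was at 8.65, 8.61, 8.49 and 8.96 at 0 h and at 10.35, 10.06, 10.36 and 10.20 at 8 h, 2.96-fold higher (log2 1.56 ± 0.16 SE, adjusted p = 1.4e-09). Mrpl47, of the exit tunnel, was at 7.97, 7.79, 8.07 and 8.14 at 0 h and at 9.20, 9.14, 9.25 and 9.18 at 8 h, 2.30-fold higher (log2 1.20 ± 0.09 SE, adjusted p = 1.4e-12). These 3 were the members with a 2-fold rise, and their 8 h arrays lay far above the 0 h arrays. Mrps27, of the small subunit body, followed at 1.96-fold, with 7.14, 7.15, 7.07 and 7.44 at 0 h and 8.18, 8.18, 8.27 and 8.07 at 8 h (adjusted p = 4.6e-11), again with no overlap. Mrpl52 and Mrpl54 did not pass the test for an MMS effect at any time, while Mrpl47 rose with MMS at 8 h (1.39-fold, adjusted p = 3.8e-05) and 24 h (1.32-fold, adjusted p = 0.00041), and Mrps27 at 24 h (1.21-fold, adjusted p = 0.0086). The Mrps27 call was lost without MMS 24 h replicate 4 (0.22, adjusted p = 0.052) and with arrays centred on their median (0.20, adjusted p = 0.091). The Mrpl47 call at 24 h was lost with the mean of all probe sets (0.18, adjusted p = 0.072).

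At 24 h few members of the control cells differed from 0 h. A single member, Mrps10, was higher than at 0 h (1.16-fold, adjusted p = 0.039) and 0 were lower (3 at an unadjusted p under 0.05 in limma), against 9.12% and 2.06% of all genes. The count higher was 0 to 5 when single arrays were left out, 5 without control 0 h replicate 4. At 1 h the controls had 3 higher members, Mrps9, Mrps10 and Mrpl48, and 2 lower ones, Mrpl9 and Mrpl44, against 7.22% and 4.38% of all genes. Mrps9 was at 7.79, 7.65, 7.80 and 7.96 at 0 h and at 8.12, 8.00, 8.12 and 8.20 at 1 h, 1.24-fold higher (adjusted p = 0.011), but without control 0 h replicate 2 the difference was 0.26 (adjusted p = 0.053). Mrpl9 was at 9.05, 9.07, 9.12 and 9.17 at 0 h and at 8.82, 8.74, 8.72 and 8.82 at 1 h, 1.26-fold lower (adjusted p = 5.2e-05). Mrpl44 was at 8.55, 8.50, 8.57 and 8.58 at 0 h and fell by 0.30 (log2) at 1 h (adjusted p = 0.0070). The groups of Mrps9, Mrpl9 and Mrpl44 did not overlap, which the choice of genes required. With the mean of all probe sets the Mrps9 call was lost (0.053, adjusted p = 0.59). The count higher at 1 h was 0 without control 0 h replicate 2 and 9 without control 0 h replicate 4.

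At 72 h the control cells had lower signals of most members than at 0 h. Of the 76 genes 42 were lower and 4 higher (55.3% and 5.26%), where 16.3% of all genes were lower and 21.8% higher, and the median was -0.23 against 0.00 for all genes. Between the same arrays 8 of 14 fibroblast markers were higher and 1 lower (median 0.38), and 4 of 16 macrophage markers were lower and 0 higher (median -0.34), and their part in these values was not tested. Mrps6 was at 11.05, 10.99, 10.76 and 11.19 at 0 h against 9.97, 10.04, 10.14 and 9.98 at 72 h, 1.95-fold lower (log2 -0.96 ± 0.07 SE, adjusted p = 3.6e-12), and Mrps6 was also the member with the highest MMS effect at 72 h. Mrps21, of the small subunit body, was lower by a like amount (1.97-fold, adjusted p = 0.019) with wide, overlapping groups. Compared with 0 h, the MMS-treated cells at 72 h were lower in Mrps6 as well (-0.55). Mrpl54 (1.65-fold lower, adjusted p = 0.00058) and Mrpl57 (1.60-fold lower, adjusted p = 0.0027) also fell without overlap of the groups, as did Mrps18c (1.63-fold lower, adjusted p = 0.038). Control 72 h replicate 1 was the lowest array in all 3, at 7.34, 8.93 and 7.89. The Mrpl57 call was lost with the mean of all probe sets (-0.23, adjusted p = 0.092). The Mrps18c call was lost without control 72 h replicate 1 (-0.36, adjusted p = 0.26), control 0 h replicate 4 (-0.59, adjusted p = 0.11) or control 0 h replicate 1 (-0.72, adjusted p = 0.056). Against this trend Mrpl24 (1.24-fold, adjusted p = 0.00028) and Mrpl39 (1.24-fold, adjusted p = 0.0038) were higher at 72 h, together with Mrpl10 and Mrps2. Mrps2 did not pass with arrays centred on their median (0.16, adjusted p = 0.074), with array weights (0.082, adjusted p = 0.13) or with the mean of all probe sets (0.044, adjusted p = 0.56). Nor did Mrps2 pass without control 72 h replicate 1 (0.096, adjusted p = 0.21), control 0 h replicate 2 (adjusted p = 0.076) or control 0 h replicate 3 (adjusted p = 0.099). The 4 control comparisons share the 0 h arrays, of which replicate 3 carried intestinal transcripts. Without the 3 arrays with the most intestinal transcripts 46 members were lower and 4 higher at 72 h, without control 0 h replicate 4 the count of lower members was 25, and without control 0 h replicate 2 that of higher members was 2.

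**Figure D3:**
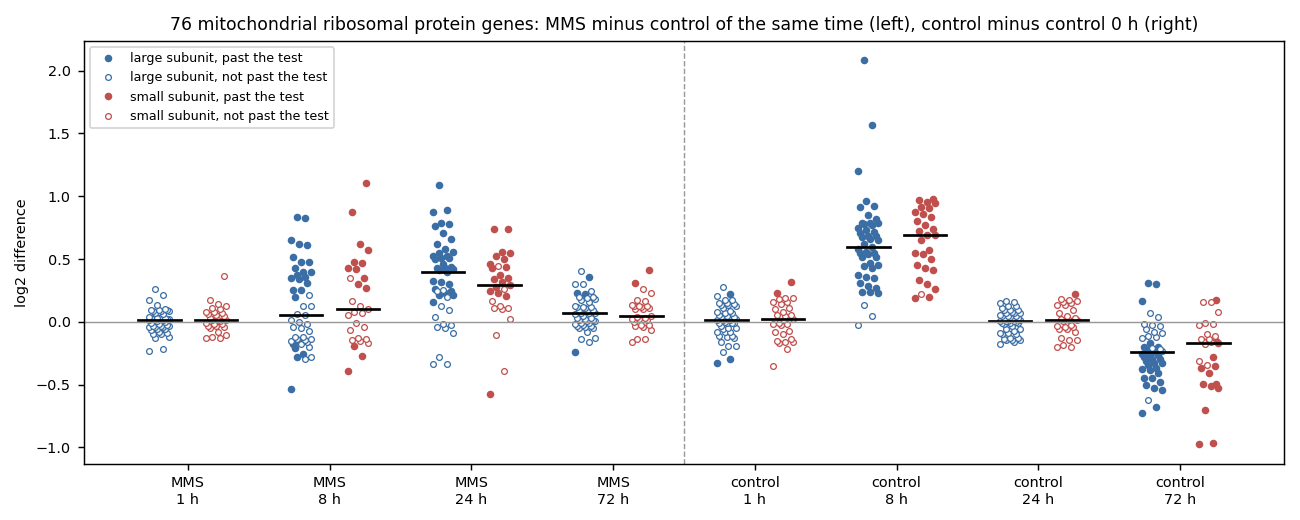
Log2 difference of each of the 76 genes for MMS against control of the same time (left 4 columns) and control against control 0 h (right 4 columns), with large subunit genes in blue and small subunit genes in red. Filled points passed the test, and black lines are medians, which were 0.40 and 0.30 (large and small subunit) for MMS at 24 h, 0.60 and 0.69 for control at 8 h, and -0.24 and -0.17 for control at 72 h.

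Both subunits had more genes higher than lower with MMS at 8 and 24 h. At 24 h the share of genes higher with MMS was 70.2% in the large and 62.1% in the small subunit, and at 8 h it was 40.4% and 37.9%. The per-array difference of the subunit means was 0.16, 0.14, 0.14 and 0.15 in control and 0.08, 0.10, 0.10 and 0.09 in MMS arrays at 8 h, and it was 0.10, 0.17, 0.16 and 0.16 in control and 0.23, 0.22, 0.24 and 0.23 in MMS arrays at 24 h. The MMS arrays were thus below the controls at 8 h and above them at 24 h, without overlap, and replicate 3 did not stand apart in this difference. These are differences between probe sets and were given no test. Structures place Mrps18a and Mrps30 in the large subunit and Mrps36 is now assigned to the oxoglutarate dehydrogenase complex, and with this grouping 35 of 49 large and 16 of 26 small subunit genes rose at 24 h.

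The counts by place in the ribosome stand beside those of all members and all genes. With MMS at 24 h 67.1% of all members and 25.0% of all genes were higher, and at 8 h 39.5% and 28.7%. In the controls at 72 h 55.3% and 16.3% were lower. Grouped by place, the exit tunnel genes had the largest median at 24 h, where 7 of 8 rose and 0 fell (median 0.52), and Mrpl23 was the exception (-0.34, not past the test). At 8 h 5 of these 8 rose and 2 (Mrpl17 and Mrpl24) fell. Of the 8 central protuberance genes 5 rose at 24 h and 7 fell in the controls at 72 h (median -0.30). Of the 8 genes of the small subunit head 6 rose at 24 h, and of the 18 of the small subunit body 10 rose and 1 fell. Among the 5 genes of the stalks and the GTPase-associated centre, Mrpl1, Mrpl10, Mrpl11 and Mrpl12 rose at 24 h, and Mrpl54 had a difference of -0.33 that did not pass the test. Of the subunits with a bacterial counterpart 30 of 47 (63.8%) were higher at 24 h, with a median of 0.33, and of those special to mitochondria 21 of 28 (75.0%), with a median of 0.34. At 8 h 17 of 47 (36.2%) and 13 of 28 (46.4%) rose, with medians of 0.07 and 0.16. The difference between these groups was not tested.

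**Figure D4:**
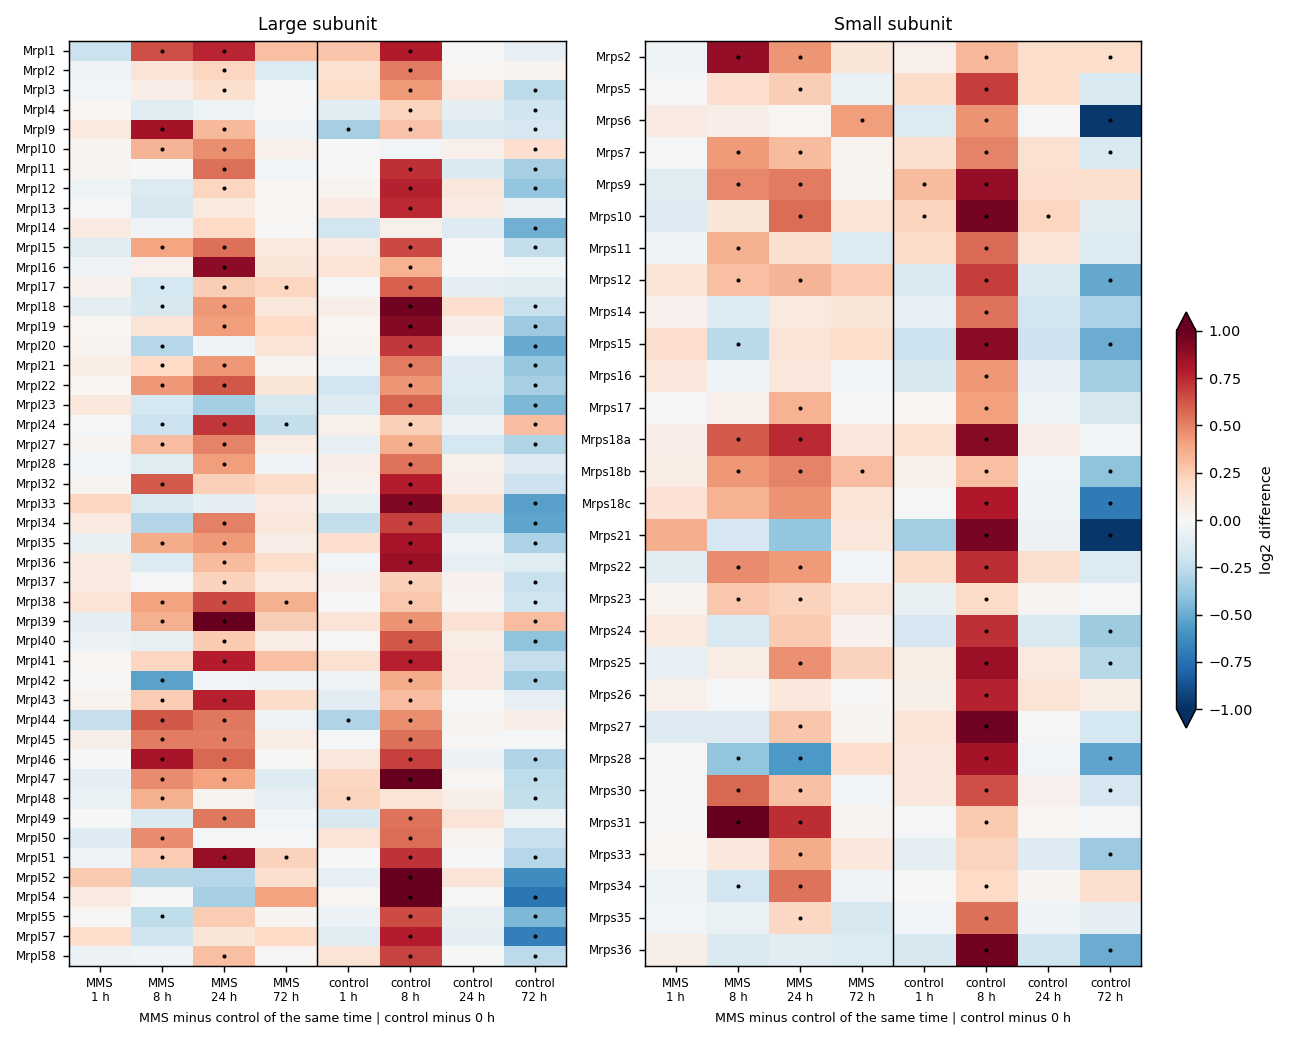
Log2 difference of each member (rows) in the 8 comparisons (columns), with colours running from blue (lower) to red (higher) and saturating at the ends of the scale, and a dot where the test was passed. The control 8 h column is higher in nearly every row, and the MMS 24 h column is higher in 51 rows and lower in 1.

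Some members have particular roles or placements. The genes Mrps18a, Mrps18b and Mrps18c encode 3 relatives of the same bacterial protein, of which structures place Mrps18a in the large and the others in the small subunit. Mrps18a rose 1.53-fold with MMS at 8 h (adjusted p = 1.7e-07) and 1.67-fold at 24 h (adjusted p = 8.2e-09), with 8.90, 9.01, 8.91 and 8.92 in control and 9.76, 9.73, 9.50 and 9.72 in MMS arrays at 24 h. Mrps18b rose 1.35-fold, 1.41-fold and 1.24-fold at 8, 24 and 72 h. Mrps18c had differences of 0.35 and 0.45 at 8 and 24 h that did not pass the test, and its 24 h MMS arrays were spread from 8.96 (replicate 3) to 10.52. The groups of Mrps18a and Mrps18b did not overlap at 8 and 24 h, and those of Mrps18c overlapped at 24 h.

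Mrps30, of the large subunit, rose 1.49-fold at 8 h (adjusted p = 1.1e-10) and 1.23-fold at 24 h (adjusted p = 2.5e-05). Mrps36, in contrast, had differences of -0.15, -0.10 and -0.14 at 8, 24 and 72 h that did not pass the test, and it rose 1.95-fold in the controls from 0 to 8 h (adjusted p = 1.1e-06). Mrpl12, the stalk protein that also binds the mitochondrial RNA polymerase, had a difference of -0.14 at 8 h that did not pass, and rose 1.16-fold at 24 h (adjusted p = 0.0044), a call lost when arrays were centred on their median (0.14, adjusted p = 0.077). Mrpl45, which lies at the exit tunnel next to the inner membrane, was at 10.06, 10.13, 10.26 and 10.14 in control and at 10.70, 10.61, 10.60 and 10.74 in MMS arrays at 8 h, 1.43-fold higher (adjusted p = 4.2e-10). At 24 h Mrpl45 was 1.42-fold higher (adjusted p = 9.6e-10), so that its MMS arrays were above the controls at both times. Mrpl58 (Ict1), which keeps a peptidyl-tRNA hydrolase activity, rose at 24 h (1.23-fold, adjusted p = 0.0015) and had a difference of -0.05 at 8 h.

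For 6 members, probe sets of the same gene were called in opposite directions. Of the 7 probe sets of Mrpl15 above the low-signal limit (of 8 in all), 4 were higher and 2 lower with MMS at 8 h. For Mrpl17 the probe set used was lower at 8 h (-0.17) and the next was higher (0.77), although the latter had a mean log2 signal of 4.88, close to the limit of 4.40. At 24 h a dim probe set of Mrpl17 (-0.28) and of Mrpl35 (-0.32) was lower while the set used was higher. In the controls at 8 h, Mrps2 was higher by 0.33 with the set used and lower with the other (-1.20), and Mrpl9 was higher with 2 sets (0.29 and 1.00) and lower with the third (-0.34), while Mrps9 had a rise with the set used and a fall with another (-0.50) in the controls at 1 h. Counted over the 142 member probe sets above the limit, 55 were higher and 12 lower with MMS at 8 h, while at 24 h 80 were higher and 3 lower. The share over all probe sets was not counted, and many of these probe sets belong to the same gene, so these counts add no evidence to those by gene.

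The members with and without a promoter motif were also set side by side. With MMS at 24 h, 17 of the 26 members with a motif and 29 of the 41 without were higher, with medians of 0.32 and 0.34, and at 8 h 14 of 26 and 14 of 41 were higher, with medians of 0.28 and 0.07. Of the 8 members with an NRF1 core, to which the Mrpl9, Mrpl39 and Mrps18b windows shown above belong, 6 were higher at 8 h and 6 at 24 h, and 1 was lower at 8 h. The lower one was Mrpl17, whose core lies 11 bases before the start and whose window is not shown. Of the 12 with an ETS site 5 and 7 were higher, and of the 8 with a YY1 site 3 and 5, with 1 lower at 8 h in each of these groups. For comparison, 39.5% of all members and 28.7% of all genes tested were higher at 8 h, and 67.1% and 25.0% at 24 h. At 8 h 11.8% of all members and 25.0% of all genes were lower. The difference between members with and without a motif was not tested.

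A further 4 subunits of the mitochondrial ribosome carry other names and had a probe set. Ptcd3, of the small subunit, fell by 0.25 (log2) at 8 h (adjusted p = 0.00013) and rose at 24 h (1.23-fold, adjusted p = 1.4e-05). The rise was lost with the mean of all probe sets (0.067, adjusted p = 0.40). Dap3, a small subunit GTPase first known from cell death, was lower with MMS at 8, 24 and 72 h, falling by 0.15, 0.20 and 0.21 on the log2 scale (adjusted p = 0.026, 0.0031 and 0.0098). Chchd1 and Gadd45gip1, of the small and the large subunit, had no MMS effect that passed the test, and rose 2.08-fold and 2.12-fold in the controls from 0 to 8 h (adjusted p = 8.1e-05 and 1.2e-09). The Dap3 call at 8 h was lost without MMS 8 h replicate 2 (-0.13, adjusted p = 0.078), control 8 h replicate 1 (-0.13, adjusted p = 0.062) or control 8 h replicate 3 (-0.12, adjusted p = 0.088), and with arrays centred on their median (-0.10, adjusted p = 0.14). The Dap3 call at 72 h was lost without MMS 72 h replicate 3 (-0.14, adjusted p = 0.14).

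Lists of genes that serve the mitochondrial ribosome and its RNAs were read against the shares of all genes, which were 28.7% higher and 25.0% lower with MMS at 8 h, and 25.0% and 19.4% at 24 h. Of 24 assembly genes, 16 were higher and 2 lower with MMS at 8 h (median 0.47), and 13 were higher and 0 lower at 24 h (median 0.28). The largest rises at 8 h were those of Mterf4, which brings an rRNA methyltransferase to the large subunit (2.90-fold, adjusted p = 9.0e-15), and of the RNA methyltransferase Trmt61b (2.45-fold, adjusted p = 5.0e-13). At 24 h the helicase Dhx30 (1.60-fold, adjusted p = 3.7e-08) and Mterf4 (1.58-fold, adjusted p = 6.0e-07) led. Mettl15, which methylates the small subunit rRNA, was lower at 8 h and fell by 0.71 on the log2 scale (adjusted p = 4.4e-06).

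Of 14 genes of mitochondrial DNA transcription and upkeep, 11 were higher and 1 lower at 8 h (median 0.54), and 10 higher and 1 lower at 24 h (median 0.33). The DNA helicase Twnk rose 2.32-fold (adjusted p = 4.6e-14) and the nuclease Mgme1 2.21-fold (adjusted p = 9.4e-11) at 8 h, and the RNA polymerase Polrmt 1.85-fold at 24 h (adjusted p = 2.3e-07). Of 12 translation factors, 7 were higher and 1 lower at 8 h, while at 24 h 9 were higher and 0 lower. Among these the initiation factor Mtif3 rose 2.39-fold at 8 h (adjusted p = 1.2e-14), and the elongation factor Gfm1 rose 1.57-fold at 24 h (adjusted p = 1.7e-10). Of the 19 tRNA charging genes 5 (26.3%) were higher and 4 (21.1%) lower at 8 h, near the shares of all genes, and 7 (36.8%) were higher and 0 lower at 24 h, with the amidotransferase subunit Qrsl1 (1.74-fold, adjusted p = 5.3e-06) the most.

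Of 15 mitochondrial chaperones and proteases, 12 were higher and 1 lower at 8 h (median 0.43), and 9 were higher and 2 lower at 24 h. The protease Lonp1 rose 1.97-fold at 8 h (adjusted p = 5.2e-13) and fell by 0.26 at 24 h (adjusted p = 0.0028) and by 0.56 at 72 h on the log2 scale (adjusted p = 1.3e-06). Grpel1, a nucleotide exchange factor of mitochondrial Hsp70, was higher at 8, 24 and 72 h (1.40-fold, 1.64-fold and 1.28-fold). Of the 12 regulators, 5 (41.7%) were higher and 1 lower at 8 h, and 3 (25.0%) each way at 24 h, where the share higher was that of all genes. Gabpb1, a GABP subunit, rose 1.78-fold at 8 h (adjusted p = 4.95e-09) and fell by 0.30 (log2) at 24 h (adjusted p = 0.0087), and the estrogen-related receptor Esrra was higher at 24 h (1.36-fold, adjusted p = 0.0084). At 72 h 2 of 24 assembly genes were higher and 1 lower, and 1 of 14 genes of mitochondrial DNA was higher and 1 lower, where 10.1% of all genes were higher and 10.4% lower.

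**Figure D5:**
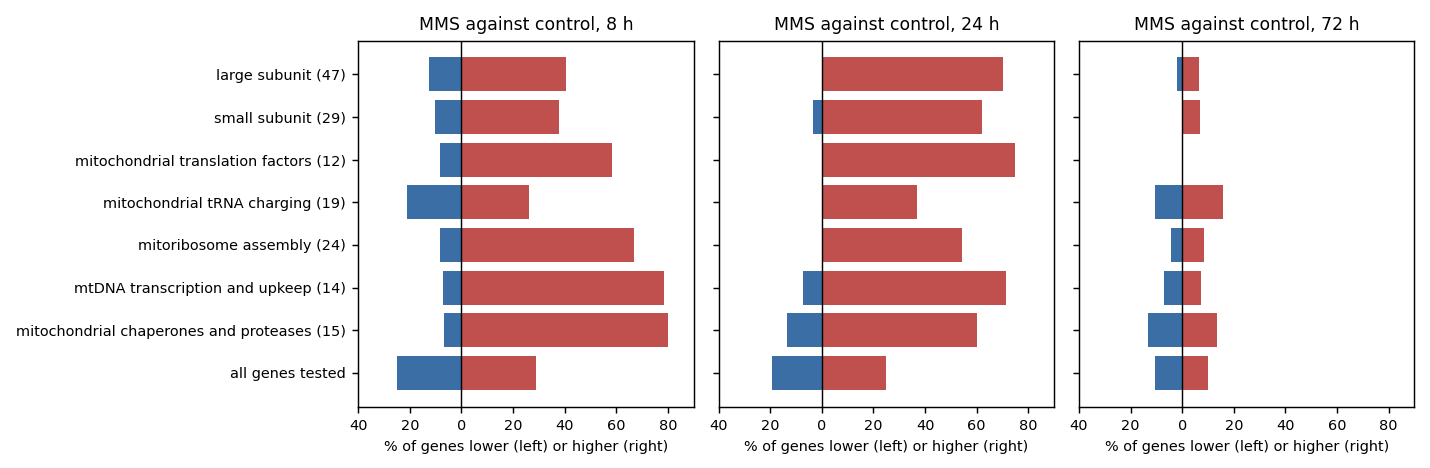
Percent of the tested genes of each list that were higher (red, right) or lower (blue, left) with MMS at 8, 24 and 72 h, with the number of genes tested in brackets and the share of all 14135 genes at the bottom. At 8 h the translation factor (58.3%), assembly, mitochondrial DNA and chaperone lists had larger shares higher than the large (40.4%) and small (37.9%) subunit genes. At 24 h the subunit genes reached 70.2% and 62.1%, below the translation factors (75.0%) and the mitochondrial DNA genes (71.4%).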

How the data were processed

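RNA of 35 mouse embryonic fibroblast samples had been hybridised to Affymetrix arrays. The authors deposited log2 signals of 45101 probe sets, for which the submitters' processing notes name RMA (version not stated), a method that corrects background, normalizes by quantiles and summarises probes. Values ran from 2.44 to 14.62 and array medians from 4.98 to 5.09. The number of arrays limits the precision. The platform annotation gave 1 symbol for 34958 probe sets, several for 932 and none for 9211, and gene identifiers of 34754 were found in the reference. Genes were represented by the probe set of highest mean. Genes with a mean in at least 1 group at or above log2 4.40, the 40th percentile of all values, were tested (14135; 4059 lay below).

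A single linear model of 9 groups with 26 residual degrees of freedom was fitted with limma 3.58.1 in R 4.3.3, followed by empirical Bayes moderation and Benjamini-Hochberg adjustment within each contrast over all genes tested. The fit was tested on simulated data. Named per contrast were up to 4 called members with the largest rise and up to 4 with the largest fall whose groups of arrays did not overlap, members of particular role (the Mrps18 family, Mrps30, Mrps36, Mrpl12, Mrpl41, Mrpl45, Mrpl58), members whose probe sets disagreed, the 4 subunits of other names, and up to 2 called genes per direction of each further mitochondrial list. Mrps21, Mrps34, Mrpl18 and other exceptions were named after their values were seen. The members, the gene lists and the motifs were chosen with earlier results of these data known. Replicate numbers were not taken to pair the samples. Alternatives were array weights, renormalization, centring, other filters, other probe set rules, the control at 0 h as reference, a replicate block, only the groups compared, and leaving out arrays. RefSeq promoters were of build GRCm38.p6.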

Additional observations from a re-analysis of the deposited data

Results flagged for a closer look

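In 23 of 288 groups of 4 arrays (34 named members and the subunit means), 1 array lay far from the other 3. Chance flags about 1 in 20 groups. In MMS 24 h replicate 3, the array with intestinal transcripts, the mean of the large subunit genes was 9.41 and of the small subunit genes 9.18, and the signals of Mrpl35 (9.91), Mrpl42 (9.92), Mrpl45 (9.99), Mrps18a (9.50) and Mrps28 (7.80) stood apart. In control 1 h replicate 4 the same held for Mrpl35 (9.69), Mrpl46 (8.45), Mrpl51 (10.50) and Mrps28 (8.74). In the control arrays at 24 h it held for Mrpl9 (9.10) and Mrpl47 (7.70) in replicate 1, Mrps18a (9.01) in replicate 2 and Mrps15 (8.94) in replicate 3. Single values were those of Mrpl41 in control 0 h replicate 4 (9.53), Mrpl39 in control 72 h replicate 1 (11.05), Mrps2 in MMS 24 h replicate 4 (9.50), Mrpl57 in MMS 1 h replicate 2 (10.45), Mrpl24 in MMS 1 h replicate 3 (9.90), Mrps9 in MMS 1 h replicate 4 (8.11), Mrps27 in MMS 8 h replicate 2 (7.89) and Mrpl47 in MMS 8 h replicate 3 (9.61).

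The MMS effect differed between times, by a test of the difference itself, in 29 of the 76 members from 1 to 8 h, in 34 from 8 to 24 h and in 40 from 24 to 72 h. Of all genes it differed in 41.3%, 45.6% and 29.0%. Counting both directions, only the count from 24 to 72 h was above the share of all genes. With arrays quantile-normalized again, the upward share of the members was above that of all genes from 1 to 8 h. The same held from 8 to 24 h. With arrays centred on their median, 16 of 27 upward changes from 8 to 24 h and 24 of 37 downward changes from 24 to 72 h still passed. From 1 to 8 h the effect on Mrps31 changed by 1.09 on the log2 scale and that on Mrps2 by 0.92, against -0.52 for Mrpl42 and -0.44 for Mrps15. From 8 to 24 h the changes were 0.92 for Mrpl24, 0.84 for Mrpl16, -0.51 for Mrpl9 and -0.49 for Mrpl50. From 24 to 72 h they were 0.74 for Mrps28, 0.74 for Mrpl54, -0.95 for Mrpl24 and -0.85 for Mrpl39. Mrpl54 was at 7.73 in MMS 24 h replicate 3, against 8.44 to 8.72 in the other MMS arrays of that time. It was at 7.34 in control 72 h replicate 1, against 8.06 to 8.25 in the other controls. Its MMS effect did not pass the test at any time. Without control 72 h replicate 1, 2 of the 3 upward changes from 24 to 72 h still passed.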

How the results depend on the processing

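The counts of members higher with MMS at 24 h, and higher in the controls at 8 h, stayed within 1.5 times their reported values in all alternatives run. The smaller counts moved. With array weights, 16 members were higher and 8 lower with MMS at 72 h, and in the controls 16 were higher and 5 lower at 1 h, with 11 and 4 at 24 h, and 1 lower with MMS at 1 h. With arrays quantile-normalized again, 3 were higher with MMS at 72 h, 2 lower with MMS at 24 h, and in the controls 1 was higher at 1 h, while 0 were higher and 3 lower at 24 h. With arrays centred on their median, 4 were lower with MMS at 8 h, 2 lower at 24 h, and 5, 0 and 2 higher in the controls at 1, 24 and 72 h, while 39 of the 51 members higher with MMS at 24 h still passed. Against the control at 0 h, MMS arrays had 71 members higher and 0 lower at 8 h, 3 higher and 28 lower at 72 h, and 2 lower at 1 h and 2 at 24 h. With only the groups compared in the model, 3 were higher with MMS at 72 h, 0, 0 and 1 higher in the controls at 1, 24 and 72 h, and 20 lower at 72 h. With the mean of all probe sets, 0 were higher in the controls at 24 h, 4 lower at 1 h and 1 lower at 8 h. Without the filter, or without the 8 h arrays, 0 were higher in the controls at 24 h. Without the 3 arrays with the most intestinal transcripts, 9 were higher with MMS at 72 h, 0 higher in the controls at 24 h and 4 lower at 1 h. Without 4 such arrays, an alternative chosen after seeing the data, 0 were lower with MMS at 72 h, 0 higher in the controls at 24 h and 4 lower at 1 h. The cause was not tested.

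When single arrays were left out, the members higher with MMS at 72 h numbered 3 to 6 and those lower 0 to 2, those lower with MMS at 24 h 1 to 3, and those lower at 8 h 4 to 10. In the controls, 0 to 9 were higher at 1 h, 0 to 5 higher and 0 to 1 lower at 24 h, and 2 to 5 higher and 25 to 45 lower at 72 h. In the fit with a replicate block, 52 members were higher with MMS at 24 h, and the replicate block changed no count by over 1.5 times. Deviations of arrays with the same number correlated at -0.26 to 0.33 over genes, and all were positive at MMS 1 h (0.093 to 0.31). They were not all over 0.1, so the numbers were not taken to pair samples, although the 4 arrays with intestinal transcripts all carried number 3.

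Against the control at 0 h, the difference turned for Mrpl17 (0.42), Mrpl20 (0.43), Mrpl24 (0.028), Mrps15 (0.63), Mrps28 (0.44), Iars2 (0.10) and Gabpb1 (-0.056) with MMS at 8 h, and for Mrpl24 (0.072), Mrpl51 (-0.052), Mrps18b (-0.10), Mrps6 (-0.55), Afg3l2 (-0.025), Grpel1 (-0.044), Myc (-0.48) and Yars2 (-0.029) at 72 h. With the mean of all probe sets it turned for Mrpl17 with MMS at 8 h (0.24), at 24 h (-0.061) and between them (-0.30), for Mrpl35 from 24 to 72 h (0.14) and for Mrps2 in the controls at 8 h (-0.43), where probe sets disagreed.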
